A study of Drosophila melanogaster and Drosophila pseudoobscura and Drosophila virilis with 4 samples.

Results

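The comparison set open chromatin in the eye-antennal imaginal disc of *D. pseudoobscura* against that of *D. melanogaster*, peak by peak, and used 3 of the 4 libraries of the series and all 19424 deposited peaks. The tested library came from the genome-sequenced wild-type stock of *D. pseudoobscura*. It was set against 2 libraries of *D. melanogaster*, 1 from Canton-S, a wild-type laboratory strain, and 1 from FRT82, whose genotype is P{neoFRT}82B, a transposon insertion that carries a recombination target site on arm 3R. All discs were dissected from wandering larvae of the third instar grown at 25 °C and were cross-linked for 10 min in 4% formaldehyde. The *D. virilis* library was left out of every value given here, but it had a part in the choice of peaks. The study filtered the peaks by length and by a minimum signal in the species, *D. virilis* among them. Regions below that minimum in a species are therefore absent. *D. pseudoobscura* had a single library, so that the difference between FRT82 and Canton-S was the only measure of error, and it holds the genotype and the library preparation together. The labels do not say how many animals were pooled for a library, nor the sex of the larvae.

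The eye-antennal disc is the larval epithelium from which the adult eye, antenna and much of the head form. Enhancers and promoters that are in use in such a tissue are held free of nucleosomes by the transcription factors bound to them. FAIRE-Seq, in which regulatory elements are isolated with the help of formaldehyde, cross-links chromatin, shears it and recovers the DNA that stays free of protein, so that the reads over a region measure how open it is. In the disc, a network of retinal determination factors, of which Sine oculis is one, sets the eye field, and regulatory regions near such genes are typical of the open regions that the assay recovers. No gene annotation of the build was used here, so that peaks are given by position on FlyBase release 5 of *D. melanogaster*, and a gene is named only where the study itself ties it to a stretch of the genome.

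The median peak spanned 289 bp, the shortest 151 bp and the longest 3029 bp. The reads in peaks summed to 4733792 in *D. pseudoobscura*, against 3407230 in Canton-S and 1386805 in FRT82. The median peak held 146 reads in *D. pseudoobscura*, 113 in Canton-S and 44 in FRT82, so that counting error alone amounts to 8.28%, 9.41% and 15.1% in that order. FRT82 was thus the shallowest library, and 3917 peaks had under 20 reads in it, against 511 in *D. pseudoobscura* and 194 in Canton-S. Levels are given as the deposited RPKM (reads scaled by peak length and library size and further normalized between libraries), whose median was 28.1 in *D. pseudoobscura*, 28.4 in Canton-S and 28.7 in FRT82. Counting errors and intervals cover the reads only, and not the animals.

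The 2 species differed in how open a peak was by more than the 2 strains did, at weak and strong peaks alike. The log2 ratio of *D. pseudoobscura* to the mean log2 level of the strains had an SD of 1.01 over the 19424 peaks and a median absolute value of 0.60, a typical difference of 1.52-fold. Between FRT82 and Canton-S it had an SD of 0.61 and a median absolute value of 0.38, or 1.30-fold. If *D. pseudoobscura* had varied only as a further *D. melanogaster* strain would, the SD against the mean of the strains would be 0.53, and the one found was 1.91 times that. Counting error made up 4.75% of the variance of the species ratio and 25.7% of that of the strain ratio. Peak heights correlated with a Pearson r of 0.449 and a Spearman rho of 0.432 between *D. pseudoobscura* and the mean of the strains, and of 0.814 and 0.809 between FRT82 and Canton-S. These are descriptions over 19424 peaks, which share the library and its normalization and are not independent replicates.

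**Figure D1:**
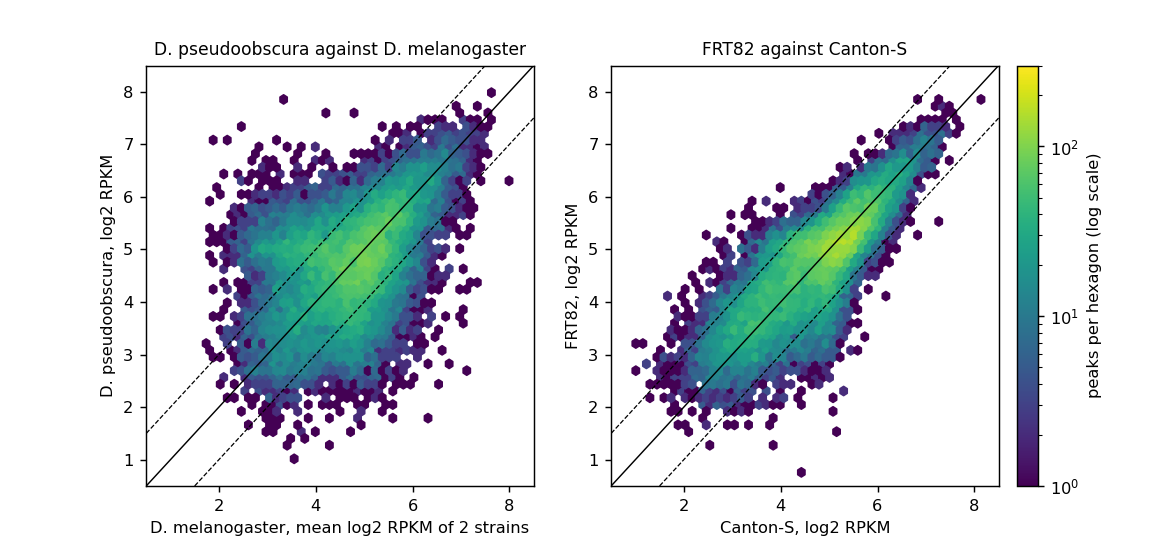
Density of the 19424 peaks by level in log2 RPKM, with *D. pseudoobscura* against the mean of the 2 *D. melanogaster* strains on the left and FRT82 against Canton-S on the right. The colour gives the peaks in a hexagon on a log scale, the solid line marks equal levels and the dashed lines 2-fold. The cloud on the left is wider (SD of the log2 ratio 1.01, against 0.61 on the right), and its upper left corner holds peaks of high level in *D. pseudoobscura* and low level in *D. melanogaster*.

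At 2-fold or more, 3033 peaks (15.6%) were higher in *D. pseudoobscura* than the mean of the strains and 2692 (13.9%) were lower. The same threshold between the strains passed 959 peaks that were higher in FRT82 and 932 that were lower, 9.74% in all against 29.5% between the species. The excess grew with the size of the difference. At 4-fold or more there were 717 higher and 385 lower peaks in *D. pseudoobscura*, against 34 and 46 in FRT82, and at 8-fold 87 and 44, against 0 and 3. The tail on the high side was the longer one, with the 99th percentile of the log2 ratio at 2.64 and the 1st at -2.30, and the 95th at 1.80 and the 5th at -1.54. The 1st and 99th percentiles of the strain ratio were -1.58 and 1.47. The excess of higher over lower peaks at 2-fold turned with the scaling and with the coverage. RPKM from the counts with TMM size factors gave 2782 higher and 3132 lower peaks, and quantile normalization 2927 and 2908. Among the 15285 peaks with at least 20 reads in each library, 1342 were 2-fold higher in *D. pseudoobscura* and 2333 were 2-fold lower. That filter is read mostly through FRT82 and so removes peaks that are weak in *D. melanogaster*.

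**Figure D2:**
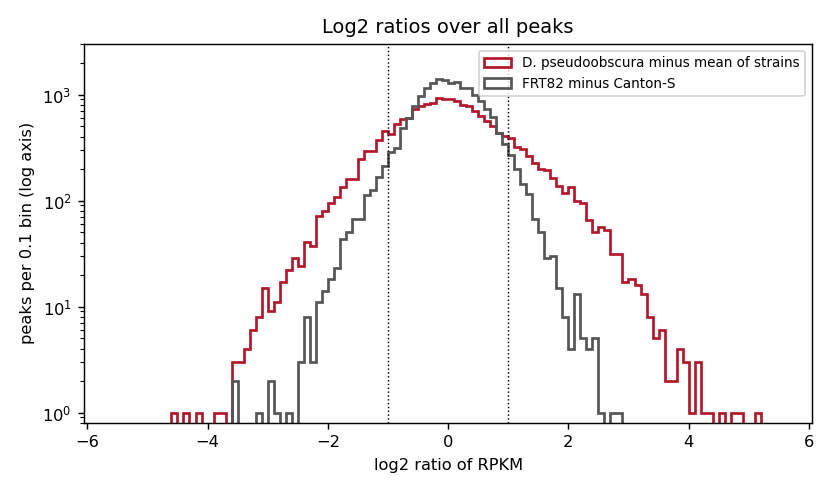
Number of peaks by log2 ratio of RPKM in bins of 0.1, on a log axis, for *D. pseudoobscura* minus the mean of the strains (red) and FRT82 minus Canton-S (grey). Dotted lines mark 2-fold. The distribution is wider for the species, with 1st and 99th percentiles of -2.30 and 2.64, against -1.58 and 1.47 for the strains.

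*D. pseudoobscura* lay above both strains at 7655 peaks (39.4%), below both at 7823 (40.3%) and between them at 3946 (20.3%), and thus outside the strains at 79.7% of peaks. Canton-S was the middle library at 39.3% of peaks and FRT82 at 40.3%, whereas 3 interchangeable libraries would share the middle place evenly. At 10106 peaks (52.0%) it was farther from the nearer strain than the strains were from each other, 4929 times on the high side and 5177 times on the low side. It was 2-fold or more above both strains at 2172 peaks (11.2%) and 2-fold or more below both at 1890 (9.73%). When only peaks are taken at which the strains differed by under 0.5 log2 units, 1414 of the higher and 1456 of the lower ones stayed. On the deposited RPKM, the numbers of higher and lower peaks were thus close to equal where the strains were alike.

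The counts were also tested with edgeR's quasi-likelihood test on the 3 libraries, in which the spread comes from the 2 strains and the lone *D. pseudoobscura* library is assumed to vary as they do. With a Benjamini-Hochberg adjusted p under 0.05 over all peaks, 5385 peaks (27.7%) were called. Of these, 2663 (13.7%) were higher and 2722 (14.0%) lower in *D. pseudoobscura*. No called peak had a deposited RPKM ratio of the other sign. Of the peaks at 2-fold or more, 2286 higher and 2372 lower ones were called, and 747 higher and 320 lower ones were not. The number of calls rests on the test. DESeq2 called 730 higher and 886 lower peaks of 18294 tested, and limma with a trend on log2(RPKM + 1) called 1509 and 1447. These p-values compare the 3 libraries, since no second *D. pseudoobscura* library shows how far a repeat would lie from the first.

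The species ratio spread more widely at weak and short peaks than at strong and long ones. The peaks were divided into eighths by the mean log2 level of the 3 libraries, whose median level runs from 10.9 to 64.5 RPKM. The SD of the species ratio was 1.16 in the lowest eighth, 1.25 in the second and 0.62 in the highest. The SD of the strain ratio was 0.70, 0.79 and 0.37 in the same eighths, so that the species spread stayed between 1.73 and 2.04 times what the strains give at each level. Strong peaks were thus closer between the species in absolute terms, and closer between the strains too.

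No direction by level can be read from these classes, since it turned with the way the level was taken. With the mean of the 3 libraries, in which *D. melanogaster* counts 2 times, 29.8% of the lowest eighth were 2-fold higher in *D. pseudoobscura* and 7.66% lower, and 3.21% of the highest eighth were higher and 6.34% lower. With equal weight to the species, 13.1% of the lowest eighth were higher and 18.3% lower, and 5.27% of the highest were higher and 3.38% lower. The spread was smallest in the highest eighth with both. With equal weight the SD was 1.05 in the lowest eighth, 1.36 in the second and 0.58 in the highest.

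Length showed the same pattern as level. Among the shortest eighth of peaks, 151 to 175 bp long, the SD of the species ratio was 1.19, and 22.3% of peaks were 2-fold higher and 18.5% 2-fold lower in *D. pseudoobscura*. Among the longest eighth, 606 to 3029 bp, it was 0.65, with 5.20% higher and 5.69% lower. The strain SD was 0.72 in the shortest peaks and 0.42 in the longest. Longer peaks hold more reads, and the part of depth and of length in this difference was not tested. The edgeR calls, which allow for the count, ran from 15.5% higher and 17.7% lower in the shortest eighth to 11.5% and 8.25% in the longest.

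Differences were not spread evenly over the chromosome arms. Arm 3L of *D. melanogaster* corresponds to XR, an arm of the X chromosome of *D. pseudoobscura* that was joined to the X in that lineage, whereas the X of *D. melanogaster* corresponds to the other X arm, and the small dot chromosome 4 to the dot of *D. pseudoobscura*. Medians are given here relative to the 12449 peaks on 2L, 2R and 3R, which correspond to autosomes in both species. The 4430 peaks of 3L had a median log2 ratio of -0.24, which is 0.845 times the level of those arms, while the strains differed there by 0.05. Against Canton-S alone the value was -0.23, and against FRT82 alone -0.27. The whole distribution was displaced, with shifts of -0.20, -0.25, -0.26 and -0.21 at the 10th, 25th, 75th and 90th percentiles. The median level on 3L was 25.3 RPKM in *D. pseudoobscura*, against 28.8 in Canton-S and 29.9 in FRT82. Of the 3L peaks, 11.9% were 2-fold higher and 17.6% 2-fold lower in *D. pseudoobscura*, whereas on 2L, 2R and 3R the shares were 16.2% and 12.6%. edgeR called 9.89% of 3L peaks higher and 18.1% lower, against 14.5% and 12.7% on the 3 other arms.

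The X went the other way and by less. Its 2289 peaks had a median of 0.13 relative to 2L, 2R and 3R, with 0.11 against Canton-S alone, 0.12 against FRT82 alone and -0.03 between the strains. On the X 19.2% of peaks were 2-fold higher and 11.9% 2-fold lower. Chromosome 4 had the largest displacement of the main arms, a median of -0.46 over 193 peaks, of which 21 were 2-fold higher and 55 (28.5%) 2-fold lower. There the strains also differed, by -0.27, so that the value was -0.60 against Canton-S and -0.35 against FRT82. The median level on 4 was 16.6 RPKM in *D. pseudoobscura*, against 27.2 in Canton-S and 20.1 in FRT82. The medians of 2L, 2R and 3R lay within 0.01 of each other. Reads over an arm count its copies and its openness together, and those cannot be told apart here, since the sex of the larvae is not given.

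The displacement of 3L was seen at every level of the signal and along the whole arm. In the 8 level classes its median relative to the same class of 2L, 2R and 3R lay between -0.48 and -0.18, while the strain ratio lay between -0.06 and 0.13. Of the 23 windows of 1 Mb with at least 20 peaks on 3L, 23 were below the median of 2L, 2R and 3R, with values between -0.52 and -0.06. In the strain ratio 5 of the 23 windows were below. On the X 17 of 22 windows were above, between -0.08 and 0.47 over all 22, and both windows of chromosome 4 were below. On the autosomal arms the windows fell on both sides, with 10 of 23 below on 2L, 9 of 21 on 2R and 16 of 28 on 3R. The X kept its sign in 7 of 8 level classes, the exception being the third, at -0.08.

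**Figure D3:**
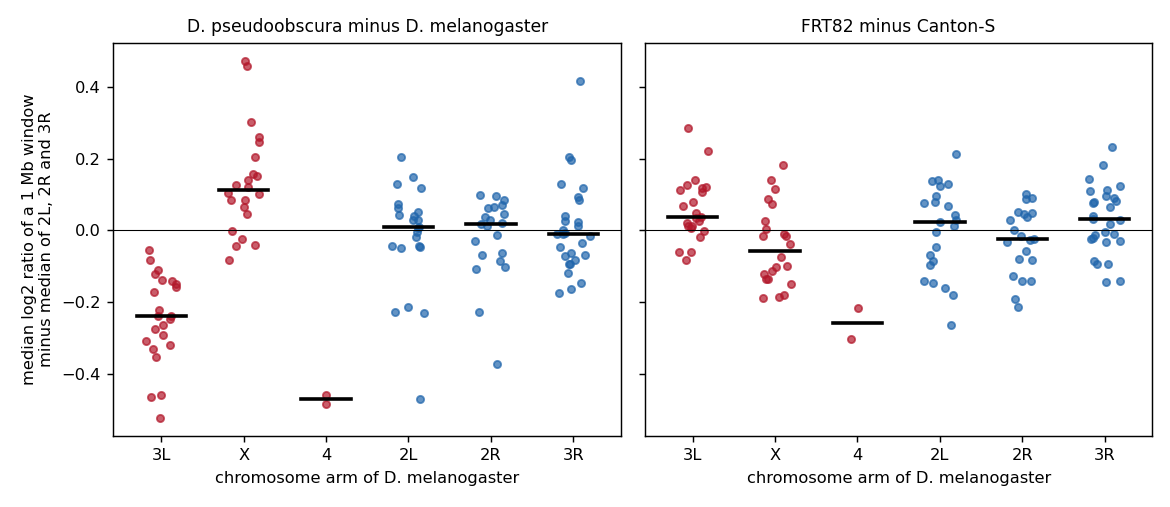
Median log2 ratio of each 1 Mb window with at least 20 peaks, relative to the pooled median of 2L, 2R and 3R, by chromosome arm, for *D. pseudoobscura* minus *D. melanogaster* on the left and FRT82 minus Canton-S on the right. Points are windows and bars their median, with red for 3L, X and 4 and blue for the other arms. All 23 windows of 3L lie below the line on the left, between -0.52 and -0.06, and 17 of the 22 on X lie above it.

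Single windows are given next by their own median log2 ratio, and not relative to 2L, 2R and 3R, whose median was 0.03. The lowest window was on 3L, from 15 to 16 Mb, with -0.49 over 184 peaks. Of those, 56 (30.4%) were 2-fold lower and 23 (12.5%) higher in *D. pseudoobscura*, against 13.9% and 15.6% of all peaks. An autosomal stretch, 2L from 10 to 11 Mb, reached nearly as low, with -0.44 over 147 peaks. There 42 (28.6%) were 2-fold lower and 13 (8.84%) higher. Chromosome 4 from 1 to 2 Mb lay between them, with -0.45 over 62 peaks and -0.30 between the strains. The highest windows were on the X, from 14 to 15 Mb, with 0.51 over 58 peaks, and from 19 to 20 Mb, with 0.49 over 93 peaks, followed by 3R from 23 to 24 Mb, with 0.45 over 98 peaks. In that stretch of 3R 27 peaks (27.6%) were 2-fold higher and 7 (7.14%) lower. Regional differences of this size were therefore found outside 3L and X too, in single windows. Between the strains the medians were 0.12 in the 3L window and -0.14 in the 2L one. They were 0.03 and -0.14 in the X windows and 0.13 in the 3R one.

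The 63 peaks on heterochromatic and unplaced sequence were few and scattered widely. Of these, 23 (36.5%) were 2-fold higher in *D. pseudoobscura* and 10 (15.9%) 2-fold lower.

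Neighbouring peaks tended to differ in the same direction. For pairs of adjacent peaks under 200 bp apart, the correlation of the species ratio was 0.401 over 2822 pairs. It was 0.332 at 200 to 500 bp, 0.211 at 500 to 1000 bp, 0.123 at 1000 to 2000 bp and 0.0742 at 2000 to 5000 bp. The strain ratio was more alike between neighbours at each of these distances, with 0.432, 0.427, 0.318, 0.261 and 0.174. Of the pairs under 200 bp apart in which both peaks differed by 2-fold or more, 253 went the same way and 41 opposite ways. At 5000 to 20000 bp the numbers were 234 and 205. Close neighbours thus differed alike more often than peaks that lay farther apart.

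Most peaks that were 2-fold above or below both strains stood alone along the arm. The 2172 peaks above both strains fell into 1740 runs of consecutive peaks, of which 325 held at least 2 peaks and 7 at least 5. The 1890 peaks below both strains formed 1582 runs, of which 249 held at least 2 peaks and 1 held 5, the longest.

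The longest run of higher peaks stood apart from this. It held 11 consecutive peaks on 2L from 5549742 to 5732275, a stretch of 182.5 kb. All 11 were called higher by edgeR, beside 13.7% of all peaks. The run was chosen for peaks 2-fold above both strains in these libraries, so that the calls are no independent evidence. Of the 11 calls, 7 kept an adjusted p under 0.05 in every alternative test that held the peak. The other 4 did not, with a highest value of 0.294. The alternative with a minimum of 10 reads left out peaks below it, the sixth and the tenth among them. The peaks had between 30.1 and 70.4 RPKM in *D. pseudoobscura*, against 6.16 to 21.6 RPKM in Canton-S and 6.52 to 17.6 RPKM in FRT82. The median log2 ratio was 2.42, or 5.36-fold, while the strain ratios ran from -0.72 to 0.80. The reads summed to 2929 in *D. pseudoobscura*, 578 in Canton-S and 207 in FRT82, with 6 to 49 reads a peak in FRT82. The run is sparse in its first part and dense at its end, where peaks 7 to 11 lie between 5729277 and 5732275. The sixth peak, from 5700338 to 5700530, had the largest ratio, with 56.6 RPKM from 198 reads in *D. pseudoobscura*, against 6.79 RPKM from 25 reads in Canton-S and 7.89 RPKM from 9 reads in FRT82. Its log2 ratio was 2.95, with an edgeR adjusted p of 2.28e-06. The peak before the run had a ratio of 1.26, and the one after it -0.33.

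**Figure D4:**
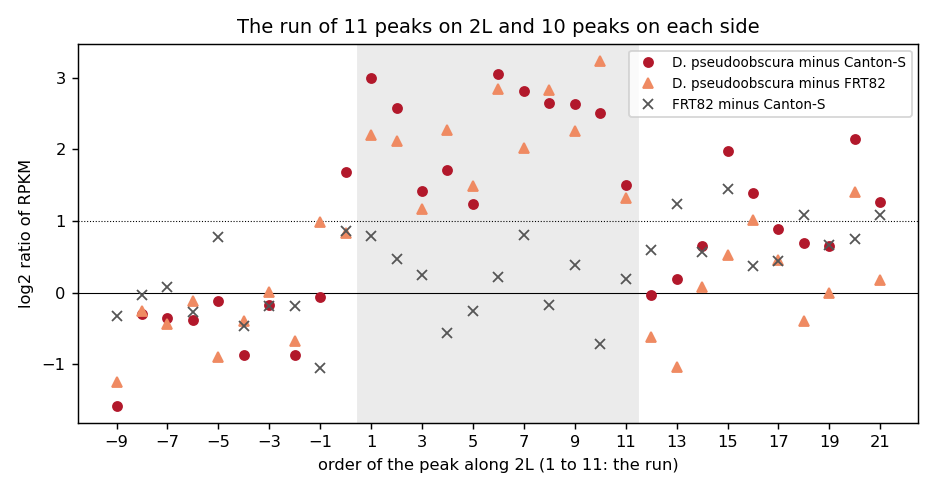
Log2 ratios of RPKM at the 11 peaks of the run on 2L (shaded) and at 10 peaks on each side, in the order in which they lie on the arm, for *D. pseudoobscura* minus Canton-S (dots), *D. pseudoobscura* minus FRT82 (triangles) and FRT82 minus Canton-S (crosses). The dotted line marks 2-fold. Within the run both species ratios lie above 2-fold at each peak by the rule that chose it, while the strain ratio stays between -0.72 and 0.80.

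There were 6 runs of 5 higher peaks, and the one with the largest median ratio was on X from 2306744 to 2329415, with 5 peaks, a median log2 ratio of 2.54 and median levels of 36.0 RPKM in *D. pseudoobscura*, 6.17 in Canton-S and 8.33 in FRT82. The second of them by that median was on 2RHet from 1874452 to 2380782, with a median of 2.02. Among lower peaks, the longest run was on 3L from 19342919 to 19491290, with 5 peaks, a median log2 ratio of -1.74, and median levels of 7.54 RPKM in *D. pseudoobscura* against 29.3 in Canton-S and 31.1 in FRT82. A run of 4 on 3L from 2043524 to 2049824 had 5.93 RPKM in *D. pseudoobscura*, against 22.6 in Canton-S and 32.7 in FRT82, a median log2 ratio of -2.33. A run of 4 on 2L from 8482112 to 8514960 had 10.8, 55.5 and 50.2 RPKM, a median of -1.77. Each of the 23 peaks of these 5 runs was called by edgeR, beside 27.7% of all peaks. These runs too were chosen for peaks 2-fold from both strains, so that their calls are no independent evidence. Of the 23 peaks, 8 lost the call in at least 1 alternative test (adjusted p up to 0.298). None of those 8 was in the run of 4 on 3L.

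The peaks that stood highest over *D. melanogaster* were below the median level in both strains, which a rank by such large ratios itself favours. They are ranked by the smaller of the log2 ratios to each strain, among peaks with at least 20 reads in each library. Their adjusted p-values come from the libraries that gave the ranks and are no independent evidence. The first lay on 2L from 9547150 to 9547524, with 236.5 RPKM (1662 reads) in *D. pseudoobscura*, against 10.2 RPKM from 68 reads in Canton-S and 10.6 RPKM from 23 reads in FRT82. Its log2 ratio was 4.51 (edgeR adjusted p = 5.42e-37), and it was the second most open peak of the *D. pseudoobscura* library.

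Next came a peak on 2R from 9343348 to 9344296, with 109 RPKM in *D. pseudoobscura*, 5.86 in Canton-S and 8.33 in FRT82 and a log2 ratio of 3.96. A peak on 3L from 3118118 to 3119852 had 65.9 RPKM in *D. pseudoobscura*, 5.96 in Canton-S and 5.49 in FRT82, a log2 ratio of 3.53. These first 3 peaks were 374, 948 and 1734 bp long, and the minimum of 20 reads in FRT82 favours long peaks where its level is low. A short peak on 3R from 15412069 to 15412242 had 189.8 RPKM in *D. pseudoobscura*, 14.8 in Canton-S and 22.5 in FRT82. The other 4 of the first 8 lay on 2R at 19453225, 14802304 and 13191837 and on 3R at 13842899, with log2 ratios between 2.87 and 3.19. On the X the first peak by this rank, from 2570715 to 2571463, had 62.4 RPKM in *D. pseudoobscura*, 7.47 in Canton-S and 10.6 in FRT82, a log2 ratio of 2.81. On chromosome 4 it lay from 724386 to 724763, with 76.8, 23.9 and 16.6 RPKM and a log2 ratio of 1.95.

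The peaks that stood lowest under the same rank had a high level in both strains, which the minimum of 20 reads in *D. pseudoobscura* itself requires at such ratios. The first, on 3R from 14566135 to 14566354, had in *D. pseudoobscura* 6.87 RPKM (20 reads), against 83.1 RPKM from 215 reads in Canton-S and 77.0 RPKM from 88 reads in FRT82, a log2 ratio of -3.54 (edgeR adjusted p = 9.00e-10). On 3R from 18967812 to 18968001 the levels were 11.5 RPKM in *D. pseudoobscura*, 121 in Canton-S and 144 in FRT82, a log2 ratio of -3.52. On X from 10636567 to 10636758 they were 8.61, 85.8 and 101 RPKM in the same order, a log2 ratio of -3.44. The rank itself selects peaks at which both strains lie far from *D. pseudoobscura*. A peak on 4 from 81019 to 81414 had 13.9 RPKM in *D. pseudoobscura*, 130 in Canton-S and 134 in FRT82, a log2 ratio of -3.25. Another on 2L from 21899500 to 21899679 had 12.6, 126 and 125 RPKM, a log2 ratio of -3.31. The other 3 of the first 8 lay on 3R at 5951396 and on 3L at 17420164 and 15754610, with log2 ratios between -3.29 and -3.15. The lowest by this rank on 2R, from 4460006 to 4460337, had 5.79 RPKM in *D. pseudoobscura*, 51.4 in Canton-S and 43.1 in FRT82. Reads of *D. pseudoobscura* reached these positions only where its genome could be aligned to that of *D. melanogaster*, and how many reads were lost in that step was not tested.

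The most open regions were shared to a part. Of the 1000 strongest peaks of *D. pseudoobscura*, 498 were among the 1000 strongest by the mean of the strains. Each strain alone gave 470 (Canton-S) and 472 (FRT82), whereas FRT82 and Canton-S shared 675 with each other. The 1000 strongest peaks of *D. pseudoobscura* had a median rank of 1011 in *D. melanogaster*, and 85 of them ranked below its median peak. Of the 1000 strongest of *D. melanogaster*, 72 ranked below the median peak of *D. pseudoobscura*. Of the 1000 strongest of FRT82, 0 ranked below the median peak of Canton-S.

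Some of the highest peaks were strong in all 3 libraries. The most open peak of *D. pseudoobscura*, on 3R from 13536681 to 13536881, had 256 RPKM there, 195 in Canton-S and 185 in FRT82, and was also among the 5 highest of *D. melanogaster*. Its log2 ratio was 0.43 on the deposited RPKM and 0.73 in edgeR, which called it higher in *D. pseudoobscura* (adjusted p = 0.0413). The call was lost in at least 1 alternative test. A peak on 3R from 5913048 to 5913404 had 204 RPKM in *D. pseudoobscura*, 160 in Canton-S and 166 in FRT82, a log2 ratio of 0.32, and was not called (edgeR adjusted p = 0.0821). Peaks on 2R from 10855063 to 10855303 (179, 178 and 215 RPKM) and on 2L from 429473 to 429747 (188, 170 and 213 RPKM) had *D. pseudoobscura* between the strains. Others differed more. A peak on 3L from 18005050 to 18005302 had 199 RPKM in *D. pseudoobscura*, which made it the fifth there, against 16.4 RPKM in Canton-S and 44.8 in FRT82. The strongest peak of *D. melanogaster*, on 3R from 13526414 to 13526638, about 10 kb from the shared one, had 77.4 RPKM in *D. pseudoobscura*, against 272 in Canton-S and 224 in FRT82, a log2 ratio of -1.67 (edgeR adjusted p = 4.82e-04). It ranked 962 in *D. pseudoobscura*, so that it was still among the strong peaks of that library.

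The study ties stretches of the genome to 6 genes, and 5 of these stretches held peaks. The window of *scrt* (*scratch*, a zinc finger factor of neurons) held 0. At *so* (*sine oculis*, a homeobox factor of the retinal determination network), 10 peaks lay on 2R. The weakest, from 3320590 to 3320876, had 22.8 RPKM in *D. pseudoobscura*, 10.4 in Canton-S and 6.03 in FRT82, from 10 reads in the last. Their reads summed to 3456 in *D. pseudoobscura*, 1959 in Canton-S and 948 in FRT82. The level in *D. pseudoobscura* was above both strains at 6 of the 10 and below both at 1, the median log2 ratio was 0.44, and 1 of the 10 was called by edgeR, beside 27.7% of all peaks. That one, from 3312342 to 3312578, had 35.2 RPKM from 152 reads in *D. pseudoobscura*, against 11.4 RPKM from 47 reads in Canton-S and 15.7 RPKM from 21 reads in FRT82, a log2 ratio of 1.39 (edgeR adjusted p = 0.0282). It was not called by DESeq2 (adjusted p = 0.238). The strains themselves differed by up to 1.16 log2 units within the locus.

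At *pdm3*, which encodes a POU-domain transcription factor, both peaks on 2R were called lower in *D. pseudoobscura*, beside 14.0% of all peaks. The first, from 4281825 to 4282158, had 6.82 RPKM from 30 reads in *D. pseudoobscura*, against 49.5 RPKM from 213 reads in Canton-S and 61.8 RPKM from 109 reads in FRT82. Its log2 ratio was -3.02 (edgeR adjusted p = 6.32e-09, at most 1.05e-05 under the alternatives). The second had 6.68 RPKM from 20 reads in *D. pseudoobscura*, 40.7 RPKM from 121 reads in Canton-S and 25.6 RPKM from 31 reads in FRT82, with a log2 ratio of -2.27 (edgeR adjusted p = 5.05e-05, at most 0.00867 under the alternatives). In both, the lower of the strains was far above *D. pseudoobscura*.

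At *how* (*held out wings*, an RNA-binding protein of the STAR family), the 9 peaks on 3R went in both directions, from -1.34 to 2.93, with 2 called higher and 2 called lower, beside 13.7% and 14.0% of all peaks. The peak from 17884918 to 17885147 had 53.5 RPKM from 223 reads in *D. pseudoobscura*, against 8.16 RPKM from 35 reads in Canton-S and 6.03 RPKM from 8 reads in FRT82. Its log2 ratio was 2.93 (edgeR adjusted p = 2.79e-06, at most 0.00603 under the alternatives). The long peak from 17867863 to 17869118 was higher too, with 74.5 RPKM in *D. pseudoobscura*, 41.2 in Canton-S and 45.3 in FRT82, a log2 ratio of 0.79 (edgeR adjusted p = 0.00338). DESeq2 did not call it (0.0735). The lower calls were weaker. At the peak from 17876881 to 17877216 the levels were 7.28 RPKM in *D. pseudoobscura*, 11.7 in Canton-S and 29.0 in FRT82, and the strains differed by 1.31 log2 units. At the eighth peak they were 8.62, 12.9 and 22.0 RPKM, a log2 ratio of -0.97 (edgeR adjusted p = 0.035). Both of these calls were lost with limma (adjusted p = 0.163 and 0.340).

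At *fred* (*friend of echinoid*, a cell adhesion protein with immunoglobulin domains), the peak on 2L from 3933766 to 3933989 had 6.38 RPKM from 18 reads in *D. pseudoobscura*, against 45.4 RPKM from 131 reads in Canton-S and 62.7 RPKM from 74 reads in FRT82. Its log2 ratio was -3.06 (edgeR adjusted p = 1.44e-07, at most 1.08e-04 under the alternatives). At *Dscam*, which encodes an immunoglobulin receptor through which neurons recognise their own branches, the peak on 2R from 3258671 to 3258844 had 30.8 RPKM from 98 reads in *D. pseudoobscura*, 44.2 RPKM from 99 reads in Canton-S and 70.2 RPKM from 64 reads in FRT82. The log2 ratio of -0.85 was close to the 0.67 between the strains, and the peak was not called (edgeR adjusted p = 0.228, between 0.0973 and 0.470 over the tests). The study showed *so*, *pdm3*, *how* and *fred* as examples from these same libraries, so that their differences are no independent evidence.

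**Figure D5:**
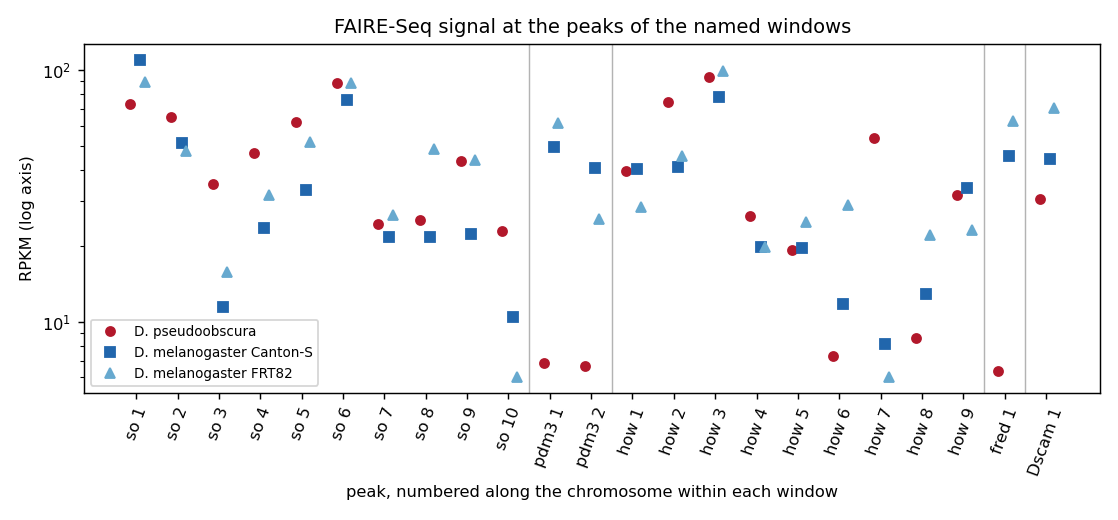
Level in RPKM (log axis) of the 23 peaks in the windows of *so*, *pdm3*, *how*, *fred* and *Dscam*, numbered along the chromosome within each window, in *D. pseudoobscura* (red dots), Canton-S (dark blue squares) and FRT82 (light blue triangles). Grey lines part the windows, and each symbol is 1 library. At *so*, *D. pseudoobscura* is above both strains at 6 of the 10 peaks and below both at 1. It is far below both strains at *pdm3* and *fred* and far above them at the seventh peak of *how*.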

How the data were processed

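Open chromatin of eye-antennal discs was profiled by FAIRE-Seq, with 1 library each for *D. pseudoobscura* and the *D. melanogaster* strains Canton-S and FRT82. The authors mapped reads with Bowtie2 to the genome of each species, moved the *D. pseudoobscura* alignments to *D. melanogaster* release 5 with liftOver, called peaks per library with F-Seq, and left out regions without reads in a species. Reads lost by liftOver lower *D. pseudoobscura* alone, and their number was not tested. The deposited counts are reads per peak from HTSeq without regard to strand. The deposited RPKM are the authors' values after normalization within and between libraries, with a tool not given in the sources used here.

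Ratios are log2 RPKM without a pseudocount, against the mean log2 of the strains. The test was edgeR 4.0.16 (quasi-likelihood, TMM, no filter, R 4.3.3) on the counts of the 3 libraries, with a Benjamini-Hochberg adjusted p under 0.05. The common coefficient of variation between the strains was 20.2%. The spread at a peak was taken from 1 trend with level that all peaks shared. Alternatives were DESeq2 1.42.0 and limma 3.58.1, other scalings, read minimums of 10 and 20, an adjusted p under 0.01 and leaving out each strain. Chosen after seeing the data were centring each arm, taking only the upper part by mean level, and a level with equal weight to the species. All else on peaks is a description without a test.

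Peaks named are those in windows that the study prints for a gene (all 6 symbols matched the RefSeq gene table of Release 6, used for names only), the 8 highest and lowest, the first of each arm, the 5 most open of each species, the 3 longest runs in each direction and the extreme 1 Mb windows. The window printed for *fred* differs from the scale drawn with it, and the printed one was used. The members and lists were chosen with earlier results of these data known.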

Additional observations from a re-analysis of the deposited data

How the results depend on the processing

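The number of calls rested most on the test. DESeq2 called 1616 peaks (730 higher and 886 lower in *D. pseudoobscura*), limma with a trend 2956 (1509 and 1447), edgeR at an adjusted p under 0.01 3084 (1578 and 1506), and edgeR with offsets from the deposited RPKM 3347 (1962 and 1385), against 5385 (2663 and 2722). DESeq2's size factors in edgeR gave 5360 and a minimum of 10 reads 5095. With at least 20 reads in each library, 1342 peaks were 2-fold higher, against 3033. That minimum also gave a spread of 1.80 times the strain expectation, against 1.91, a median of 0.086 for X, of -0.65 for chromosome 4 and a correlation of neighbours under 200 bp apart of 0.326, against 0.401. RPKM from the counts with TMM gave a spread of 2.21 times, and the mean over peaks 0.10 for X. With either strain left out, the median was between -0.27 and -0.23 for 3L, 0.11 and 0.12 for X and -0.60 and -0.35 for 4. The causes were not tested. The medians of 3L, X and 4 and the 2-fold peaks named here kept their direction under each alternative run. At *so*, the peak at 3320590 (log2 ratio 1.53, adjusted p = 0.0553) was called only with the minimum of 10 reads (0.0404). No paired analysis was possible because *D. pseudoobscura* has 1 library and the labels give no replicate numbers.

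The depth of FRT82, with 796 peaks under 10 reads, limits ratios at weak peaks. A second *D. pseudoobscura* library would be needed to separate the species from the library.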
